A study of Homo sapiens with 18 samples.

Results

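Transcripts of death receptors and of the caspase machinery were followed in MM1R and MM1S cells, a pair of human multiple myeloma lines of common origin, MM1R being resistant and MM1S sensitive to glucocorticoids. The 8 genes were taken by symbol from the deposited count tables, 8 of 43735 listed genes. They are the TRAIL receptors TNFRSF10A and TNFRSF10B, the decoy TRAIL receptor TNFRSF10D, the receptor FAS, the inhibitor CFLAR, the initiator caspases CASP8 and CASP9, and the caspase inhibitor XIAP. Cells of each line were left untreated, given 5 µM RSL3 for 3 h, or given 2 µM of the ferroptosis inhibitor ferrostatin-1 (Fer-1) for 2 h before the same RSL3 exposure. RSL3 inhibits GPX4, the enzyme that detoxifies lipid peroxides. Each of the 6 groups held 3 libraries from separate passages, passages 4, 6 and 7 of MM1R cells and passages 16, 22 and 23 of MM1S cells, which are replicates 1 to 3. Untreated cells were the common control, no group with Fer-1 alone was analysed here, and both lines are cultured tumour cells derived from the same origin.

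In the extrinsic route of apoptosis, TRAIL or FAS ligand binds its receptor, the receptor recruits the adaptor FADD, and FADD gathers procaspase-8, which CFLAR can keep inactive. In the intrinsic route, cytochrome c released from mitochondria assembles APAF1 and procaspase-9 into the apoptosome, and XIAP binds and blocks active caspases until proteins such as DIABLO displace it. Ferroptosis, by contrast, runs through iron-dependent lipid peroxidation and does not need caspases. The comparison therefore asks whether the transcripts of the apoptotic machinery moved within hours of a ferroptosis inducer, and whether Fer-1 altered that.

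Libraries held 17635438 to 19368343 counts, and 14281 genes passed a filter on low counts, including all 8 genes, whose counts lay between 24 and 3260 per library. Levels are given as CPM, read counts divided by the TMM-scaled library size. Of the 8 plasma cell markers, all were detected and their summed level was 4390 to 6250 CPM across the 18 libraries, while the T cell list summed to 3.42 to 11.8 CPM, the monocyte list to at most 0.601 CPM and the mature B cell list to at most 0.506 CPM. The stroma list summed to 2.26 to 21.8 CPM, with its highest value in an MM1S RSL3 library. 1 library, labelled replicate 2 of MM1R Fer-1 + RSL3, stood apart. Over 18 genes that separated the lines by more than 8-fold it lay at 45.7% of the MM1S level (quartiles 41.7% and 55.8%), against -0.671% to 3.19% in the other MM1R libraries, and its level of NR3C1, the glucocorticoid receptor gene that marks MM1S cells, was 50.2 CPM against 13.8 to 22.3 CPM in the other MM1R libraries. MM1S RSL3 replicate 1 had the lowest TMM factor of all libraries (0.864) and NR3C1 at 392 CPM against 89.9 to 163 CPM in the other MM1S libraries. In bulk RNA, an admixture of other cells and a change within each cell cannot be told apart. For some values of the 8 genes that moved when either library was left out, both values are given.

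In the build of the deposited files, hg19, the TRAIL receptor genes lie together on chromosome 8 on the minus strand, TNFRSF10B at chr8:22877646-22926544, TNFRSF10D at chr8:22993101-23021540 and TNFRSF10A at chr8:23047965-23082615. FAS lies at chr10:90750414-90775542 on the plus strand. CFLAR (chr2:201980877-202041410) and CASP8 (chr2:202098166-202226559) share the plus strand of chromosome 2 with CASP10 between them. CASP9 lies at chr1:15817327-15853029 on the minus strand and XIAP at chrX:122993562-123047822 on the plus strand. Genes on the opposite strand overlap 7 of the 8, TNFRSF10D being the exception, and among them are the protein-coding genes RHOBTB2 (TNFRSF10B), ACTA2 (FAS), FLACC1 (CASP8) and CELA2B (CASP9). The use of strand in counting is not given in the sources used here, so reads of such partners cannot be told apart.

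Per kilobase of annotated exon, mean levels in untreated MM1R cells were 18.2 CPM for TNFRSF10A, 15.7 for TNFRSF10B, 14.8 for CASP8, 6.68 for FAS, 5.39 for XIAP, 4.03 for CFLAR, 2.2 for CASP9 and 0.86 for TNFRSF10D. The neighbours TNFRSF10B and CASP8, with SDs of 1.71 and 1.34 (n = 3), did not differ beyond their spread, nor did FAS and XIAP, with SDs of 2.38 and 0.713. In untreated MM1S cells CASP8 led with 17.1 CPM per kilobase, followed by TNFRSF10A at 16 and TNFRSF10B at 7.82, and TNFRSF10D was again the lowest of the 8 at 1.57. CASP8 and TNFRSF10A, with SDs of 1.67 and 1.16, did not differ beyond their spread there. The exon length joins all annotated isoforms and was 22478 bases for CFLAR, which lowers its level per kilobase.

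RSL3 was followed by higher transcript levels of CASP8 in both lines and of CASP9 in MM1S cells, and, when the lines were averaged, also of FAS. All of these were changes of less than 2-fold. In edgeR's quasi-likelihood test, 1 of the 8 genes passed an FDR of 0.05 in MM1R cells (CASP8), where 3.36% of all tested genes passed in either direction. In MM1S cells 2 of the 8 passed (CASP8 and CASP9) against 3.67% of all genes. That count was 0 without MM1S RSL3 replicate 1, without MM1S untreated replicate 1 or without MM1S untreated replicate 2. Averaged over both lines 3 of the 8 passed (CASP8, CASP9 and FAS) against 15.5% of all genes. All of those that passed were higher with RSL3. The count with a log2 fold change over 1 as well was 0 of the 8 in each fit, where 1.2%, 1.61% and 3.24% of all genes met both limits. The median log2 fold change of the 8 genes was 0.34 in MM1R cells, 0.33 in MM1S cells and 0.27 averaged, against a median of 0 over all tested genes in each. These fits did not pair libraries by passage. A fit with the passage as a replicate block, given below, called more of the 8 genes and more of all genes.

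**Figure D1:**
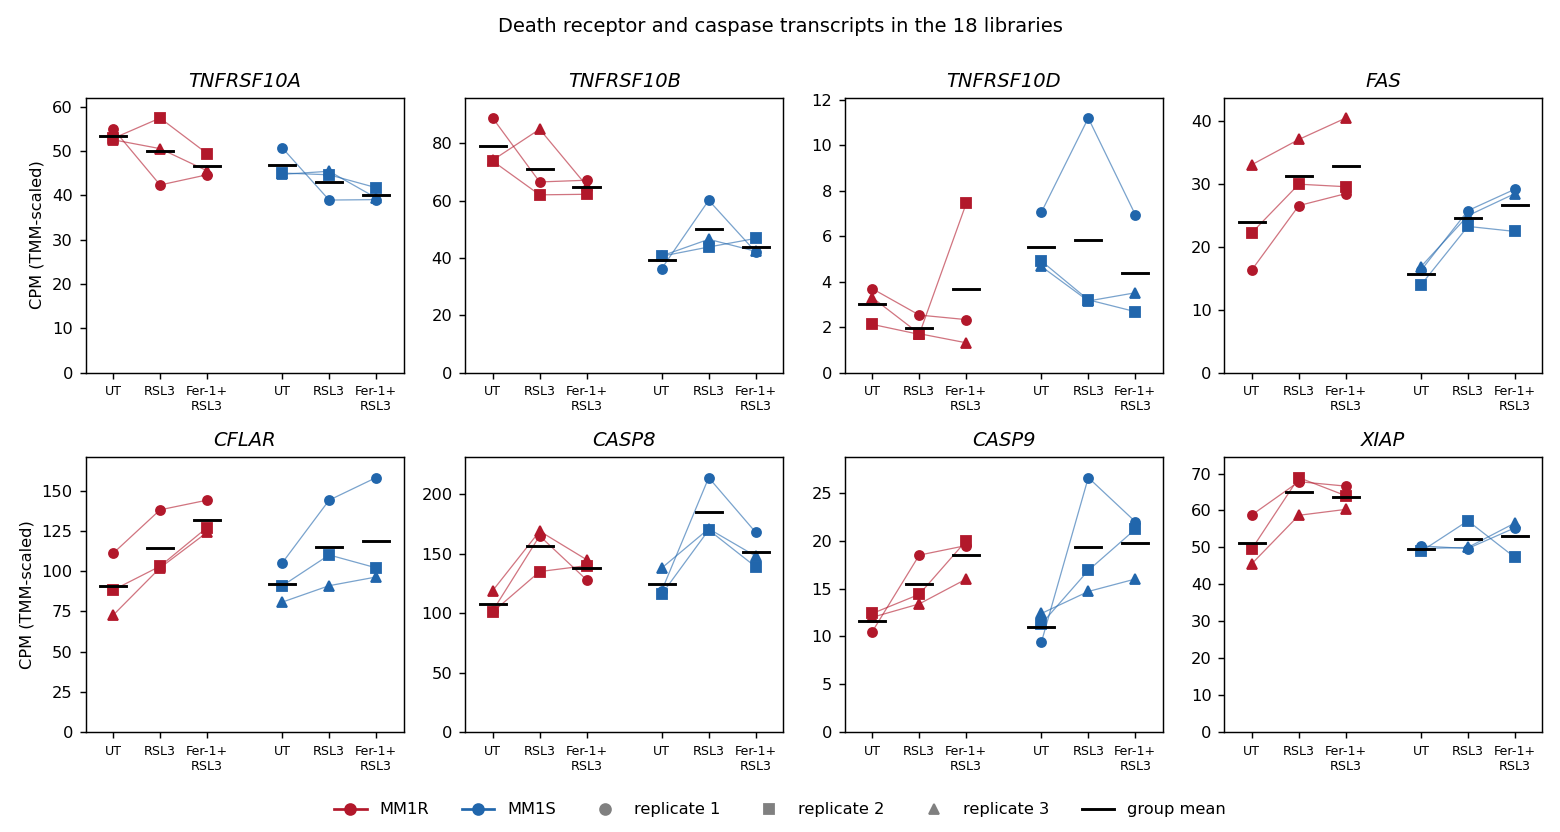
Level of each of the 8 genes in CPM (y axes, from 0) in untreated (UT), RSL3 and Fer-1 + RSL3 libraries of MM1R (red) and MM1S (blue) cells, with symbols for replicates, lines joining a passage and black bars for group means. CASP8 in RSL3 libraries sits at 135 to 169 CPM in MM1R and 170 to 214 CPM in MM1S cells, above the untreated 101 to 119 and 116 to 138 CPM, and TNFRSF10D in MM1R Fer-1 + RSL3 replicate 2 sits apart at 7.44 CPM.

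CASP8, the initiator caspase of the death receptor route, stood at 102, 101 and 119 CPM in untreated MM1R cells of passages 4, 6 and 7 and at 165, 135 and 169 CPM in the RSL3 libraries of the same passages. In MM1S cells of passages 16, 22 and 23 it stood at 119, 116 and 138 CPM untreated and at 214, 170 and 171 CPM with RSL3. The groups did not overlap in either line. Among the 8 genes, CASP9 also did not overlap in MM1R cells, and CASP9, FAS and TNFRSF10B did not overlap in MM1S cells, all higher with RSL3, where 13.5% (MM1R) and 12.6% (MM1S) of all tested genes lay wholly higher. The log2 fold change of CASP8 was 0.54 (SE 0.12, FDR 0.0249) in MM1R cells, 0.57 (SE 0.12, FDR 0.0189) in MM1S cells and 0.56 (SE 0.09, FDR 0.000618) averaged, which is a rise of 47.2%. The averaged call held in each of 12 fits that left out 1 of the libraries compared, with log2 fold changes of 0.5 to 0.6. The calls in single lines were less firm. In MM1R cells the call was lost when the RSL3 library of passage 4 (FDR 0.108) or 7 (0.0863) or the untreated library of passage 4 (0.093) or 6 (0.111) was left out. In MM1S cells it was lost when the RSL3 library of passage 16 (FDR 0.0817) or the untreated library of passage 16 (0.101) or 22 (0.0809) was left out.

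CASP9, the initiator caspase of the apoptosome, was a transcript of low level. It stood at 10.5, 12.4 and 12 CPM in untreated MM1R cells and at 18.5, 14.4 and 13.4 CPM with RSL3. In MM1S cells it stood at 9.38, 11.3 and 12.4 CPM untreated and at 26.6, 16.9 and 14.7 CPM with RSL3. Every RSL3 library of a line lay above every untreated one. The log2 fold change was 0.41 (SE 0.21, FDR 0.31) in MM1R cells, 0.81 (SE 0.21, FDR 0.0395) in MM1S cells and 0.61 (SE 0.15, FDR 0.0104) averaged. The size in MM1S cells rested in part on RSL3 replicate 1: without that library the log2 fold change was 0.52 and the FDR 0.211. The call was also lost when the untreated library of passage 16 (FDR 0.175), 22 (0.0983) or 23 (0.0725) was left out, whereas the averaged call held in each of 12 such fits.

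FAS, the receptor of FAS ligand, stood at 16.3, 22.2 and 33 CPM in untreated MM1R cells and at 26.5, 29.9 and 37 CPM with RSL3. The MM1R groups overlapped, and each passage was higher with RSL3. In MM1S cells it stood at 16.2, 13.9 and 16.8 CPM untreated and at 25.7, 23.2 and 24.9 CPM with RSL3, without overlap. The log2 fold change was 0.39 (SE 0.21, FDR 0.348) in MM1R cells, 0.65 (SE 0.21, FDR 0.0964) in MM1S cells and 0.52 (SE 0.15, FDR 0.0269) averaged. The MM1R value was 0.17 without untreated replicate 1, 0.25 without RSL3 replicate 3 and 0.69 without untreated replicate 3, none of which passed. The averaged call was lost without MM1R untreated replicate 1 (FDR 0.0571), MM1R untreated replicate 2 (0.0651), MM1R RSL3 replicate 3 (0.0685) or MM1S untreated replicate 2 (0.0682).

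CFLAR, which encodes the catalytically inactive caspase-8 relative FLIP, stood at 111, 88.2 and 72.6 CPM in untreated and at 138, 103 and 102 CPM in RSL3-treated MM1R cells. In MM1S cells it stood at 105, 90.8 and 80.7 CPM untreated and at 144, 110 and 90.9 CPM with RSL3. Replicate 1 was the highest library of each of the 6 groups, and the treatment groups overlapped in both lines. Its averaged log2 fold change of 0.32 (SE 0.15, FDR 0.148) did not pass. XIAP stood at 58.8, 49.6 and 45.6 CPM untreated and at 67.8, 68.9 and 58.7 CPM with RSL3 in MM1R cells, and at 50.4, 48.9 and 49.7 CPM untreated and 49.7, 57.2 and 50 CPM with RSL3 in MM1S cells. Its log2 fold change was 0.34 (SE 0.11, FDR 0.101) in MM1R cells and 0.08 (SE 0.11, FDR 0.766) in MM1S cells.

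Within passages, CASP8, CASP9, FAS and CFLAR were each higher with RSL3 in 6 of 6 pairs, as were 13.8% of all tested genes, and XIAP was higher in 5 of 6. The log2 ratio within a pair ran from 0.31 to 0.85 for CASP8, from 0.15 to 1.51 for CASP9, from 0.17 to 0.74 for FAS and from 0.17 to 0.49 for CFLAR. The passage pairs the libraries of a line, and with the passage as a replicate block 4 of the 8 genes passed in MM1R cells and 5 averaged over both lines, where 13.1% and 30.4% of all genes passed. In that fit the additional calls in MM1R cells were FAS (log2 fold change 0.42, FDR 0.0216), CFLAR (0.34, FDR 0.033) and XIAP (0.35, FDR 0.0274). Averaged over both lines CFLAR (0.32, FDR 0.00361) and XIAP (0.21, FDR 0.0267) were added. In MM1S cells FAS (0.66, FDR 0.00319) was added to CASP8 and CASP9, where 13.3% of all genes passed.

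**Figure D2:**
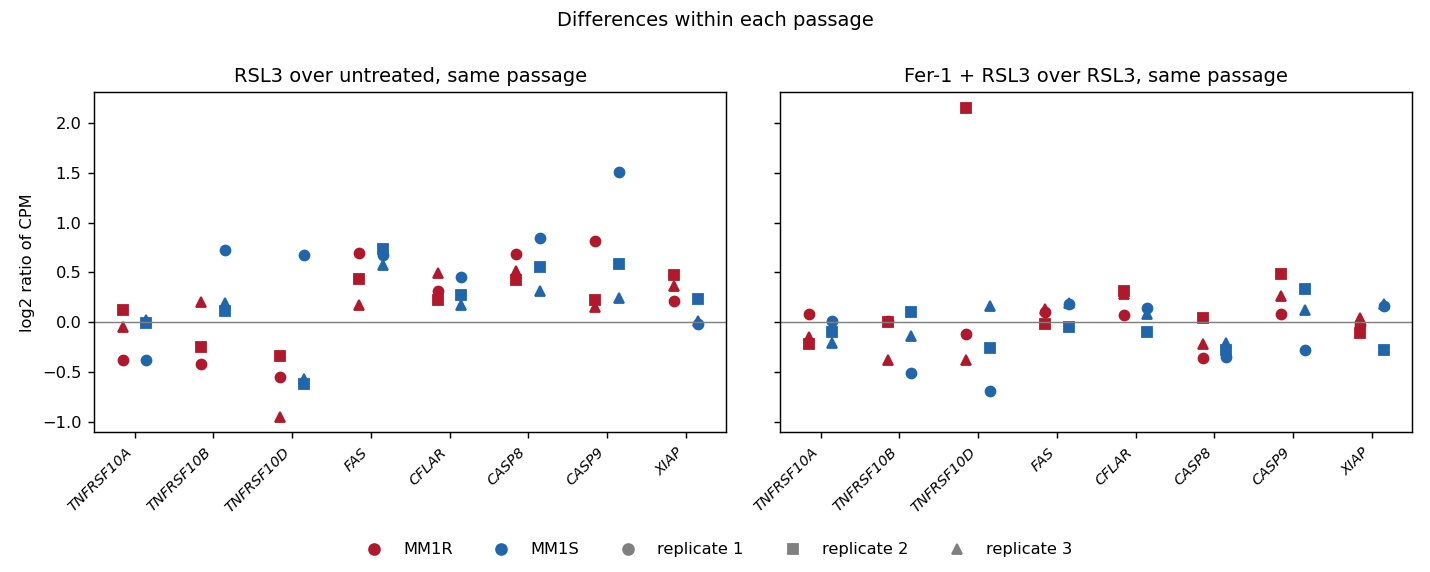
Log2 ratio of CPM within each passage (y axis) for RSL3 over untreated (left) and Fer-1 + RSL3 over RSL3 (right), 1 point per passage, with MM1R in red, MM1S in blue and symbols for replicates. All 6 points of CASP8, CASP9, FAS and CFLAR lie above 0 on the left, and TNFRSF10D in MM1R replicate 2 lies at 2.15 on the right.

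None of the TRAIL receptor genes passed with RSL3. TNFRSF10A stood at 52.5 to 55 CPM in untreated MM1R cells and at 42.3 to 57.4 CPM with RSL3, and at 44.7 to 50.7 CPM and 38.9 to 45.4 CPM in MM1S cells. The averaged log2 fold change was -0.11 (SE 0.08, FDR 0.383), with a 95% interval of -0.27 to 0.06, and was -0.07 without MM1S RSL3 replicate 1. TNFRSF10B stood at 88.8, 73.8 and 74.1 CPM in untreated MM1R cells and at 66.5, 62 and 84.9 CPM with RSL3. In MM1S cells it stood at 36.3, 40.6 and 40.7 CPM untreated and at 60.1, 43.8 and 46.5 CPM with RSL3. Its log2 fold change was -0.15 (SE 0.13, FDR 0.615) in MM1R cells and 0.35 (SE 0.13, FDR 0.159) in MM1S cells, where it was 0.21 (FDR 0.572) without RSL3 replicate 1.

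TNFRSF10D, whose product binds TRAIL but lacks a working death domain, had the lowest counts of the 8 genes, 24 to 171 per library. It stood at 3.69, 2.12 and 3.3 CPM in untreated MM1R cells and at 2.53, 1.68 and 1.71 CPM with RSL3, lower in each passage. In MM1S cells it stood at 7.05, 4.91 and 4.67 CPM untreated and at 11.2, 3.2 and 3.15 CPM with RSL3, higher in passage 16 and lower in passages 22 and 23. The log2 fold change was -0.62 (95% interval -1.88 to 0.64, FDR 0.646) in MM1R cells and 0.07 (-1.1 to 1.24, FDR 0.966) in MM1S cells, and without MM1S RSL3 replicate 1 the latter was -0.8. A difference of 2-fold in either direction lay inside the MM1S interval and was not resolved at this depth and spread.

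The difference between the lines in the response to RSL3 was tested directly, and in edgeR's test 0 of the 8 genes passed, as did 0% of all tested genes. At an unadjusted p under 0.05 1 of the 8 passed, TNFRSF10B, against 1.55% of all genes. At an FDR under 0.05 DESeq2 and limma each gave 0 of the 8, and 0% of all genes passed in those fits too. The interval of the difference, MM1R minus MM1S, was -0.4 to 0.34 for CASP8, -1.01 to 0.21 for CASP9 and -0.9 to 0.36 for FAS on the log2 scale. For TNFRSF10B the difference was -0.5 (SE 0.19, FDR 1). Without MM1S RSL3 replicate 1 the differences were -0.35 for TNFRSF10B, from -0.4 to -0.11 for CASP9 and from -0.03 to 0.09 for CASP8.

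**Figure D3:**
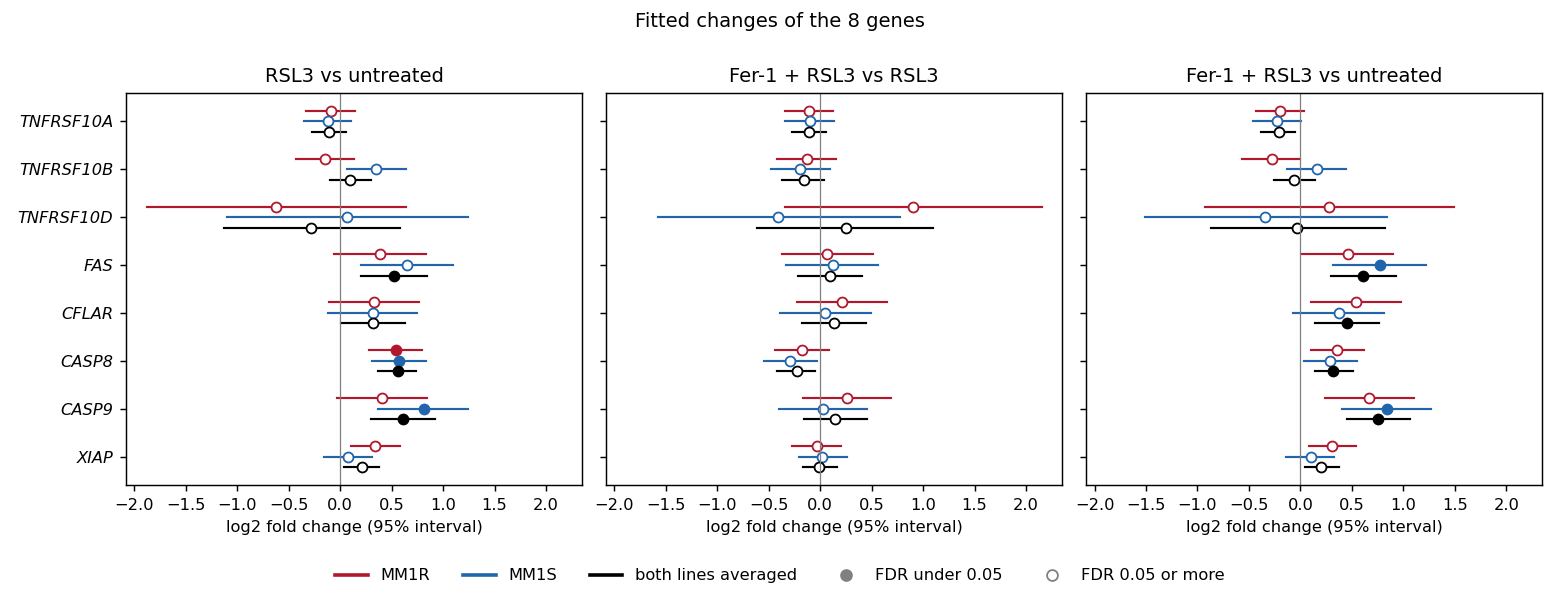
Fitted log2 fold change (x axes) with its 95% interval for each gene in MM1R (red), MM1S (blue) and both lines averaged (black), for the 3 treatment comparisons; filled circles have an FDR under 0.05. CASP8 is filled in all 3 fits of RSL3 against untreated, and the middle panel, Fer-1 + RSL3 against RSL3, has open circles throughout.

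Pre-treatment with Fer-1 left the RSL3-associated levels of the 8 genes without a change that passed the test. In edgeR's test of Fer-1 + RSL3 against RSL3, 0 of the 8 genes passed in MM1R cells, in MM1S cells and averaged, where 0%, 0% and 0.119% of all tested genes passed. At an unadjusted p under 0.05 these counts were 0, 1 and 1 of the 8, each time CASP8, against 6.17%, 5.75% and 12.8% of all genes. DESeq2 gave 0 in each, where 0.366%, 0.0543% and 1.95% of the genes it gave an adjusted p passed, and limma gave 0, where 0%, 0% and 0.084% of all genes did. With the passage as a replicate block 0 of the 8 passed as well, where 0.175%, 0.056% and 2.37% of all genes did. CASP8 stood at 128, 140 and 145 CPM in MM1R Fer-1 + RSL3 libraries, overlapping with RSL3 alone, and at 168, 139 and 148 CPM in MM1S libraries, each lower than every RSL3 library of that line, where 4.17% of all tested genes lay wholly lower. The log2 fold change of CASP8 was -0.18 (SE 0.12, FDR 0.861) in MM1R cells, -0.29 (SE 0.12, FDR 0.845) in MM1S cells and -0.23 (SE 0.09, FDR 0.277) averaged, and 1 of the 6 passages was higher with Fer-1. Without MM1S RSL3 replicate 1 the MM1S value was -0.17.

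CASP9 stood at 19.5, 20 and 16 CPM in MM1R and at 22, 21.2 and 16 CPM in MM1S Fer-1 + RSL3 libraries, higher than with RSL3 alone in 5 of 6 passages, with an averaged log2 difference of 0.14 (95% interval -0.16 to 0.45, FDR 0.733), which was 0.28 without MM1S RSL3 replicate 1 and 0.06 without MM1S RSL3 replicate 3. FAS stood at 28.4, 29.5 and 40.4 CPM in MM1R and at 29.1, 22.4 and 28.4 CPM in MM1S Fer-1 + RSL3 libraries, with an averaged difference from RSL3 of 0.09 (-0.22 to 0.41, FDR 0.842). CFLAR stood at 144, 127 and 124 CPM in MM1R and at 158, 102 and 96.3 CPM in MM1S Fer-1 + RSL3 libraries, with an averaged difference of 0.13 (-0.18 to 0.44, FDR 0.768), which was 0.22 without MM1S RSL3 replicate 1. For XIAP the interval of the averaged difference was -0.17 to 0.16, and for TNFRSF10A it was -0.27 to 0.06. For TNFRSF10D the MM1R libraries stood at 2.33, 7.44 and 1.31 CPM. The high value was the library that lay between the lines in their separating genes, and without it the log2 difference fell from 0.9 to -0.11.

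Fer-1 + RSL3 was also compared with untreated cells, a comparison chosen after the values had been seen. It shares its untreated libraries with the comparison of RSL3 against untreated. In MM1R cells 0 of the 8 genes passed in edgeR's test against 9.22% of all genes, with 6 of the 8 at an unadjusted p under 0.05 (24.6% of all genes), 1 by DESeq2 (13.2% of the genes it gave an adjusted p) and 0 by limma (9.12%). Of the 6 at an unadjusted p under 0.05, 5 were higher and 1, TNFRSF10B, was lower, where 13.6% and 11% of all genes were. With the passage as a replicate block 5 passed there (FAS, CFLAR, CASP8, CASP9 and XIAP), where 22.2% of all genes did. In MM1S cells 2 of the 8 passed against 4.61%, FAS (log2 fold change 0.77, SE 0.21, FDR 0.0482) and CASP9 (0.84, SE 0.21, FDR 0.0273). Leaving out any of the 6 libraries compared ended the call of FAS (FDR 0.0597 to 0.175), and 5 of the 6 ended that of CASP9 (FDR 0.0502 to 0.124). Averaged over both lines 4 of the 8 passed against 19%: CASP9 (0.75, SE 0.15, FDR 0.00178), FAS (0.61, SE 0.15, FDR 0.00841), CASP8 (0.32, SE 0.09, FDR 0.0159) and CFLAR (0.45, SE 0.15, FDR 0.0395). The averaged call of CFLAR was lost in 7 of 12 fits that left out 1 library (FDR 0.0578 to 0.119), among them the fit without MM1R Fer-1 + RSL3 replicate 2 (0.0578), and its value was lowest, 0.32, without MM1S Fer-1 + RSL3 replicate 1. The replicate block added CFLAR in MM1S cells (0.34, FDR 0.0288), where 14.7% of all genes passed. Averaged it added XIAP (0.21, FDR 0.0273) and, lower than untreated, TNFRSF10A (-0.22, FDR 0.0323), where 33.3% of all genes passed.

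The averaged changes against the same untreated libraries were, side by side, 0.61 with RSL3 and 0.75 with Fer-1 + RSL3 for CASP9, 0.52 and 0.61 for FAS, 0.32 and 0.45 for CFLAR, 0.21 and 0.2 for XIAP, and 0.56 and 0.32 for CASP8. TNFRSF10A had values of the opposite sign, as did TNFRSF10D (-0.28 and -0.03), and TNFRSF10B had 0.1 and -0.06. For TNFRSF10D with RSL3, leaving out single libraries gave -0.71 to -0.13. TNFRSF10A stood at 44.6, 49.4 and 45.5 CPM in MM1R and at 39, 41.7 and 39.4 CPM in MM1S Fer-1 + RSL3 libraries. Each lay below every untreated library of its line, where 14.1% (MM1R) and 13.6% (MM1S) of all genes lay wholly lower. Its averaged log2 fold change against untreated was -0.21 (SE 0.08, FDR 0.0635), which did not pass. It passed with the passage as a replicate block (-0.22, FDR 0.0323), and with RLE scaling, a minimum count of 50, DESeq2, limma and the compared groups alone the FDR was 0.0257 to 0.0493. TNFRSF10B in Fer-1 + RSL3 libraries lay wholly below untreated in MM1R cells (62.2 to 67.1 CPM, log2 fold change -0.28, FDR 0.202). In MM1S cells it lay wholly above untreated (42.1 to 46.8 CPM, 0.16, FDR 0.606), as did 14.7% of all genes.

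Untreated MM1R and MM1S cells differed in TNFRSF10B, the gene of the TRAIL receptor DR5. The 3 MM1R libraries lay at 73.8 to 88.8 CPM and the 3 MM1S libraries at 36.3 to 40.7 CPM, a log2 fold change of 1.01 (SE 0.14, FDR 0.000244). It was the only one of the 8 genes to pass in this comparison, where 10.5% of all tested genes passed. TNFRSF10A, the other death-signalling TRAIL receptor, was 52.5 to 55 CPM in MM1R and 44.7 to 50.7 CPM in MM1S cells, also without overlap, but its log2 fold change of 0.19 (SE 0.11, FDR 0.304) did not pass. Of all genes, 15.6% lay wholly higher in MM1R and 16.7% wholly lower. TNFRSF10D lay wholly lower in MM1R cells, with a log2 fold change of -0.86 (SE 0.57, FDR 0.377). FAS was 0.61 higher on the log2 scale in MM1R cells (SE 0.21, FDR 0.0806), and leaving out 1 library gave 0.3 (FDR 0.423, without MM1R untreated replicate 3) to 0.82 (FDR 0.0182, without MM1R untreated replicate 1), with 1 of 6 such fits passing. CFLAR (-0.02), CASP9 (0.07) and XIAP (0.05) had differences of 0.07 or less in size, each with an SE of 0.11 to 0.21, and CASP8 had -0.21 (SE 0.12, FDR 0.31). Line and passage range cannot be told apart in this comparison, since MM1R cells were at passages 4 to 7 and MM1S cells at passages 16 to 23.

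Some of the 8 genes can be set beside the sequence before their start sites. CASP8, CASP9 and FAS had passed with RSL3 averaged over both lines, whereas CFLAR and XIAP had not passed in that fit. Windows of 250 bases before to 50 bases after an annotated start were taken from RefSeq (GRCh38.p14). Windows were used here for 5 of the 8 genes, 15 in all: FAS, CFLAR, CASP8, CASP9 and XIAP. The windows were searched on both strands for TGANTCA, since the AP-1 genes JUN and ATF3 rose in both lines. This is a loose form of the AP-1 motif, in which N is any base. It stood in 4 of the 15 windows, against 7.71% of 35116 windows of all genes: 1 of FAS, 1 of CFLAR and 2 of CASP8. The match read TGAATCA in FAS and CFLAR, and TGAGTCA and TGACTCA in CASP8. The antioxidant response element TGACNNNGC stood in 5 of the 15 against 13.3% of all windows, 2 of FAS, 1 of CFLAR and 2 of XIAP. The 2 FAS windows overlap and hold the same match, as do the 2 of XIAP, so these matches were counted more than once. The heat shock element GAANNTTC stood in 2 of the 15 against 6.77%, 1 of CFLAR and 1 of CASP8. The cyclic AMP response element TGACGTCA (1.85% of all windows), the C/EBP-ATF motif TGATGNAA (3.62%) and an NF-kB motif (1.91%) stood in 0 of the 15, which says only that these letters are not there. The window of FAS at chr10:88990548-88990847 (plus strand) and those of CASP8 at chr2:201257785-201258084 and chr2:201260286-201260585 (plus strand) are shown because these genes rose. Matches of TGANTCA are in capitals.
FAS: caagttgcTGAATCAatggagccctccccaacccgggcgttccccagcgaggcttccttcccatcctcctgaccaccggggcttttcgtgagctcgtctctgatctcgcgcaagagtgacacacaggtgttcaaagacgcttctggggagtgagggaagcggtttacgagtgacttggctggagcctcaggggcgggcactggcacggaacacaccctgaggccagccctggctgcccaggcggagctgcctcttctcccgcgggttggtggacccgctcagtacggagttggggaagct
CASP8 at 201257785: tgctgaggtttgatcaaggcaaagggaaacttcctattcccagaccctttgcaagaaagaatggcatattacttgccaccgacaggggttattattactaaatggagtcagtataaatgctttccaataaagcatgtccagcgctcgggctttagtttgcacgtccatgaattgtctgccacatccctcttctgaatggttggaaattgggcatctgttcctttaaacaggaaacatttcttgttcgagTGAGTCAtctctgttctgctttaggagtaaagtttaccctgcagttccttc
CASP8 at 201260286: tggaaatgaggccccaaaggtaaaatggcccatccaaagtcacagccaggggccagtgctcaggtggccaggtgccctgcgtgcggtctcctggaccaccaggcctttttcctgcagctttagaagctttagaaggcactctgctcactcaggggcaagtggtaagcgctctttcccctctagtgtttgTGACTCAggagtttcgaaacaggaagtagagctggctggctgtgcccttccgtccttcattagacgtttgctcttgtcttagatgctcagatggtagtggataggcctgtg
CASP9 had no match of TGANTCA in either window but 8 and 9 matches of the GC box GGGCGG, counted on both strands and with overlaps. At least 1 GC box stood in 10 of the 15 windows, overlapping windows included, against 45% of all windows. These were 3 of 3 windows of FAS, 2 of 4 of CFLAR, 1 of 3 of CASP8, 2 of 2 of CASP9 and 2 of 3 of XIAP. Its window at chr1:15524166-15524465 (minus strand) is shown with the GC boxes in capitals.
CASP9: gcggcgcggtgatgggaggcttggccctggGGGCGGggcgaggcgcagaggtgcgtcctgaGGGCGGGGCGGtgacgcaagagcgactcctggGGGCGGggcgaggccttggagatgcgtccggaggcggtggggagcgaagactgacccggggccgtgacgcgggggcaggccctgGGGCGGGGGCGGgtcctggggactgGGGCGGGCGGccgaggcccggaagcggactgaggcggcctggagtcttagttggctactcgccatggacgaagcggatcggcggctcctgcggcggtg
A match is a string of letters in a window and does not show that a factor was bound there.

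The other genes of the pathway were counted by role in fixed lists. Of 37 listed genes 28 could be tested, and averaged over both lines 4 were higher and 2 lower with RSL3 at an FDR under 0.05, where 15.5% of all genes passed in either direction (8.7% higher and 6.81% lower). The median log2 fold change of the 28 was 0, as it was for all genes. The smallest FDR among the 28 was 0.0547 in MM1R cells (TNFRSF21) and 0.0744 in MM1S cells (DIABLO). Ligands were nearly absent: FASLG, LTA and TNFSF12 had at most 2, 1 and 6 counts in a library, TNF had 0 in every library, and only TNFSF10, the gene of TRAIL, was tested (log2 fold change -0.16, FDR 0.64). The further decoy receptor genes TNFRSF10C, TNFRSF6B and TNFRSF11B had at most 4, 1 and 2 counts.

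Among receptors, TNFRSF21 (DR6) rose by 0.69 (SE 0.19, FDR 0.0227) and TNFRSF1A, the main TNF receptor, had a log2 fold change of 0.01 (FDR 0.925). Of the 7 tested genes of adaptors and the receptor complex, CASP10, the relative of CASP8 that lies next to it in the genome, fell by 0.23 (SE 0.07, FDR 0.0362). FADD, the adaptor that binds procaspase-8, had 0.29 (SE 0.1, FDR 0.0593). The 4 other caspase genes counted here had log2 fold changes of -0.19 (CASP2, FDR 0.238), -0.14 (CASP4, FDR 0.329), -0.12 (CASP6, FDR 0.657) and -0.02 (CASP1, FDR 0.928). Of the 5 genes of the apoptosome and mitochondrial release, DIABLO, whose product displaces XIAP from caspases, rose by 0.44 (SE 0.1, FDR 0.00986), HTRA2, a mitochondrial protease that also binds XIAP, fell by 0.37 (SE 0.09, FDR 0.0119), and APAF1, the partner of caspase-9, had -0.25 (SE 0.21, FDR 0.471). Of the 6 inhibitor genes and partners, BIRC2 (cIAP1) rose by 0.45 (SE 0.13, FDR 0.0248) and XAF1, an antagonist of XIAP, by 2.29 (SE 0.76, FDR 0.0493) from a low level. XAF1 stood at 0.523 ± 0.178 CPM untreated and 3.81 ± 3.67 CPM with RSL3 in MM1R cells (SD, n = 3), so its libraries with RSL3 differed widely.

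**Figure D4:**
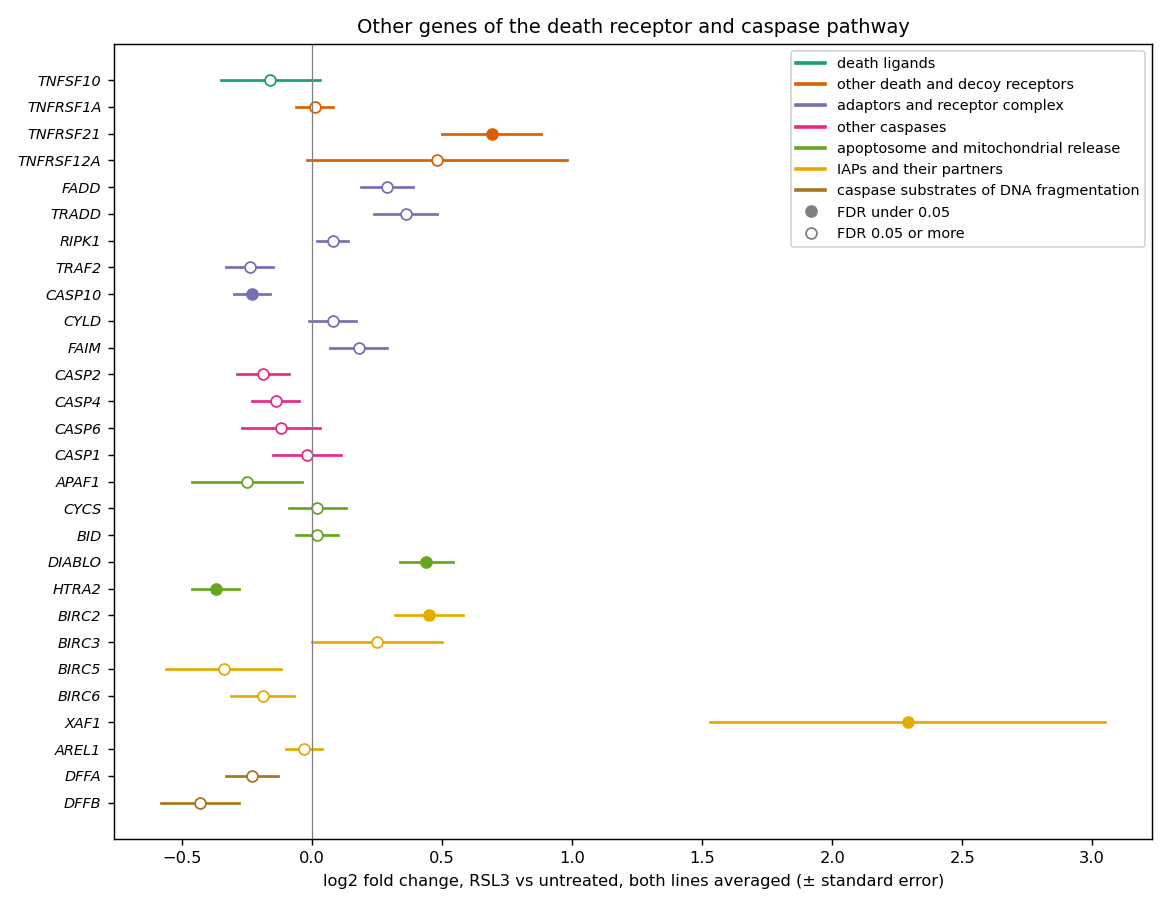
Log2 fold change of the 28 tested pathway genes with RSL3 against untreated, averaged over both lines (x axis), with bars of 1 standard error and colours for their role; filled circles have an FDR under 0.05. The 6 filled genes are TNFRSF21, DIABLO, BIRC2 and XAF1 to the right of 0 and CASP10 and HTRA2 to the left.

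A list of 5 stress-linked genes, 4 of them of transcription factors, is given for comparison of size. With RSL3, DDIT3 (CHOP) was higher by 2.56 in MM1R (FDR 0.00467) and 2.53 in MM1S cells (FDR 0.00424), ATF4 by 0.89 (FDR 0.0207) and 0.93 (FDR 0.0171), ATF3 by 4.55 (FDR 0.00992) and 4.08 (FDR 0.0145), and JUN by 4.78 (FDR 0.00773) and 3.83 (FDR 0.0177), all as log2 fold changes. Within each line the RSL3 libraries differed widely in JUN and ATF3. JUN stood at 1010 ± 926 CPM in MM1R and 800 ± 1010 CPM in MM1S cells with RSL3 (SD, n = 3). ATF3 stood at 646 ± 583 CPM and 785 ± 930 CPM there. TRIB3, a stress-induced pseudokinase, passed in neither line, with 0.49 (FDR 0.27) in MM1R and 0.82 (FDR 0.0569) in MM1S cells, and had 0.65 (FDR 0.0133) averaged. TNFRSF10B, which CHOP is known to activate in other settings, had the values of -0.15 and 0.35 given above. Whether any of these factors acted on the 8 genes was not tested.

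After the mean of each line was subtracted, the log2 levels of CASP8 correlated across the 18 libraries with those of FAS (Pearson's r = 0.73) and CASP9 (0.71), CFLAR with CASP9 (0.71) and XIAP (0.64), and TNFRSF10A ran opposite to CASP9 (-0.77) and CFLAR (-0.62). TNFRSF10B and TNFRSF10D had coefficients between -0.34 and 0.32 with the other genes. These libraries share treatments and passages, so the coefficients are descriptions. Over the same 18 libraries the tested genes most like CASP8 were BHLHE22 (r = 0.976), LOC105369325 (0.952) and YEATS2 (0.945). Those most like CASP9 were C15orf65 (0.954), CYP2R1 (0.94) and NEURL1 (0.935), and those most like FAS were TXNL4B (0.936), MAP3K14 (0.916) and NSFL1C (0.903).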

How the data were processed

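RNA of 18 MM1R and MM1S libraries was sequenced by the authors as paired 50 bp reads, checked with FastQC 0.11.5 and aligned to hg19 with STAR 2.7.3a. The authors deposited raw read counts for 43735 genes and a normalized table for 29553 genes, whose signal is the count divided by 1 size factor per library (0.834 to 1.08). The counting tool, annotation and use of strand are not given in the sources used here. Columns were assigned to samples by their labels.

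Counts were filtered with filterByExpr (minimum count 10), which kept 14281 genes, scaled with TMM (factors 0.864 to 1.06) and tested with edgeR 4.0.16 (R 4.3.3), quasi-likelihood test, in 1 model of 6 group means with 12 residual degrees of freedom, with Benjamini-Hochberg adjustment over all tested genes (FDR). A gene passed at an FDR under 0.05. The 8 genes, the pathway lists and the tests were chosen with earlier results of these data known. All 8 genes, pathway genes that passed with RSL3, 5 stress-linked genes, and the 3 genes most like FAS, CASP8 and CASP9 by Pearson's r across libraries are named. Some genes of the pathway lists are not reported here. Total counts of 17635438 to 19368343 per library set the counting error. The scripts were tested on simulated counts.

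Alternatives were RLE, upper-quartile and total-count scaling, no filter, a minimum count of 50, DESeq2 1.42.0, limma 3.58.1 on log2(normalized value + 1), the compared groups alone, the passage as a replicate block, an added log2 fold change over 1, an FDR of 0.1, and leaving out each library. Passages pair libraries within a line, as the labels give them. Deviations from the group means had a median correlation of 0.25 (0.0338 to 0.516) between libraries of the same passage in MM1R cells and of 0.416 (0.216 to 0.681) in MM1S cells, each over 9 pairs, against -0.102 and -0.33 between passages. Deviations within a group cancel out, so the values between passages are tied to those within passages and are not a separate comparison.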

Additional observations from a re-analysis of the deposited data

How the results depend on the processing

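Counts are of the 8 genes that passed, with the share of all genes that passed in the same fit in brackets. For RSL3 against untreated in MM1R cells 1 passed (3.36%), with the replicate block 4 (13.1%), and 0 with an added log2 fold change over 1 (1.2%). In MM1S cells 2 passed (3.67%), with total-count scaling 1 (2.87%) and with the added fold 0 (1.61%). With the compared groups alone 0 passed there (0.0228%), where CASP8 and CASP9 had log2 fold changes of 0.57 and 0.81. Averaged, 3 passed (15.5%), with the replicate block 5 (30.4%) and with the added fold 0 (3.24%). For MM1R against MM1S untreated 1 passed (10.5%), without the filter 2 (6.65%), with DESeq2 2 (13.4%) and at an FDR of 0.1 2 (15.8%), and no paired value was computed there because passages lie within lines. For Fer-1 + RSL3 against untreated in MM1R cells 0 passed (9.22%), with total-count scaling 2 (7.25%), without the filter 2 (5.54%), with a minimum count of 50 1 (12.1%), with DESeq2 1 (13.2%), with the replicate block 5 (22.2%), with the compared groups alone 1 (9.86%) and at an FDR of 0.1 3 (14.7%). In MM1S cells 2 passed (4.61%), with RLE 1 (4.66%) and with the added fold 0 (1.37%), and averaged 4 passed (19%), with the added fold 0 (2.96%). The replicate block moved no other count by over 1.5 times. Leaving out single libraries gave 0 to 1 for RSL3 in MM1R cells, 0 to 3 in MM1S cells and 2 to 3 averaged, 0 to 0 for Fer-1 + RSL3 against RSL3 in each line and averaged and for the difference in response, 1 to 2 for the untreated lines, and 0 to 2 (MM1R), 0 to 2 (MM1S) and 3 to 5 (averaged) for Fer-1 + RSL3 against untreated. The cause was not tested except that fewer samples enter such fits.

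Log2 fold changes near 0 changed sign, none of them past the threshold. With total-count scaling, which took the median of all genes from 0 to -0.1 in MM1S cells with RSL3 and from 0.01 to 0.08 for Fer-1 + RSL3 against RSL3 in MM1R cells, TNFRSF10D with RSL3 in MM1S cells became -0.09 and XIAP -0.02, XIAP for Fer-1 + RSL3 against RSL3 became 0.04 in MM1R cells and 0.07 averaged, and CASP8 for the difference in response 0.04. TNFRSF10D with RSL3 in MM1S cells was also -0.17 with limma and -0.12 with the replicate block, and TNFRSF10D for Fer-1 + RSL3 against untreated in MM1R cells was -0.07 with limma. CFLAR between the untreated lines was 0.01 with upper-quartile scaling, 0 with a minimum count of 50 and 0.01 with the compared groups alone.

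Leaving out single libraries turned the sign of further values. The range for the difference in response was for CASP8 -0.12 to 0.09, for CFLAR -0.14 to 0.21, for FAS -0.48 to 0.04, for TNFRSF10A -0.08 to 0.14 and for TNFRSF10D -0.99 to 0.18. The range for Fer-1 + RSL3 against RSL3 in MM1S was for CASP9 -0.14 to 0.32, for CFLAR -0.21 to 0.24, for TNFRSF10D -0.9 to 0.46 and for XIAP -0.03 to 0.1. The range for the untreated lines was for CASP9 -0.03 to 0.18, for CFLAR -0.2 to 0.11 and for XIAP -0.06 to 0.12. The range for Fer-1 + RSL3 against RSL3 in MM1R was for FAS -0.12 to 0.2, for TNFRSF10A -0.22 to 0, for TNFRSF10D -0.11 to 1.28 and for XIAP -0.12 to 0.01. The range for RSL3 against untreated in MM1R was for TNFRSF10A -0.21 to 0.02. The range for Fer-1 + RSL3 against RSL3 averaged over both lines was for TNFRSF10D -0.26 to 0.67 and for XIAP -0.04 to 0.03. The range for Fer-1 + RSL3 against untreated averaged over both lines was for TNFRSF10D -0.54 to 0.17. The range for Fer-1 + RSL3 against untreated in MM1R was for TNFRSF10D -0.74 to 0.67. The range for RSL3 against untreated in MM1S was for TNFRSF10D -0.8 to 0.37.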

Other observations

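Of the 8 plasma cell markers, 2 were lower and 1 higher with RSL3 averaged over both lines, with a median log2 fold change of 0.02 over the 8, in a fit where 15.5% of all genes passed. In that fit SDC1, the surface proteoglycan that defines plasma cells, had a log2 fold change of -0.45 (SE 0.11, FDR 0.0113) and TNFRSF17, the receptor BCMA, of -0.53 (SE 0.14, FDR 0.0155), while CD38 had 0.54 (SE 0.17, FDR 0.0408). The other 5 of the 8 markers, XBP1, IRF4, PRDM1, MZB1 and SLAMF7, did not pass, with log2 fold changes between -0.26 and 0.26. COL1A1, a stromal collagen gene, reached 19.5 CPM in 1 library, MM1S RSL3 replicate 1, in which CASP8 and CASP9 also had their highest levels of the 18 libraries (214 and 26.6 CPM). The part of these differences in the results above was not tested.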
